A study of Mus musculus with 12 samples.

Results

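Complement is a group of secreted and membrane proteins of innate immunity, and 9 genes encoding its components and regulators were followed here in 12 melanoma tumors. They were *C1qa*, *C1qb*, *C1qc*, *C2*, *C4b*, *C3*, *Cfb*, *C3ar1* and *Serping1*, chosen by name from the 23420 genes of the deposited count table. Earlier results of these data were known at that choice, so shares over all genes given below are descriptions and not a test of the 9. The tumors were grown from B16-F10 cells, a melanoma line of C57BL/6 origin, implanted under the skin of male C57BL/6J mice. Nonobese mice had been fed a control diet, and obese mice had been fed a Western diet with added cholesterol for 15 weeks. Once tumors were palpable, mice of both diets received 10 mg/kg of either anti–PD-1, which blocks an inhibitory receptor of T cells, or an isotype control antibody. Each of the resulting 4 groups held 3 tumors, so that the response to PD-1 blockade could be compared between diets. Where 4 values are given in a row below, they follow the order of nonobese tumors with isotype, nonobese tumors with anti–PD-1, and then obese tumors with isotype and with anti–PD-1. The Western diet began at 4 to 5 weeks of age. The labels do not say whether mice of 1 group shared a cage or a day, so the P values measure the spread between these tumors.

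The classical pathway starts when C1q, built from the products of *C1qa*, *C1qb* and *C1qc*, binds antibodies or dying cells and its associated proteases cleave C4 and C2. The fragments of C4 and C2 form an enzyme that cleaves C3, and the alternative pathway forms a similar enzyme from C3 and factor B, encoded by *Cfb*. The C3a fragment acts on its receptor, encoded by *C3ar1*, and *Serping1* encodes the C1 inhibitor, which blocks the proteases of C1. Hepatocytes make most of the complement in plasma, while macrophages are known as the main source of C1q in tissues and fibroblasts as 1 of the local sources of C3.

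Several of these genes lie side by side in the genome (RefSeq annotation of GRCm38.p6, the assembly of mm10, all 9 on the minus strand). The C1q genes form a cluster on chromosome 4, with *C1qb* at chr4:136880126-136886200, *C1qc* at chr4:136889801-136892936 and *C1qa* at chr4:136895916-136898844. Only 3600 bases separated *C1qb* from *C1qc*, and 2979 bases separated *C1qc* from *C1qa*. On chromosome 17, *Cfb* (chr17:34856374-34862514) and *C2* (chr17:34862602-34882100) were 87 bases apart in the major histocompatibility complex, near *C4b* (chr17:34728139-34743902), and *C3* lay apart from them at chr17:57203967-57228136. *C3ar1* was at chr6:122847140-122856157 and *Serping1* at chr2:84765360-84775444. Promoter sequences from RefSeq (GRCm38.p6) were matched for 4 of the 9 genes, and 3 are shown: those of the neighbors *C1qb* and *C1qc*, whose levels moved together, and that of *C3*, which had the widest differences between groups. Each is the 250 bases before the start, given 5′ to 3′ on the minus strand, at chr4:136886201-136886450 for *C1qb*, chr4:136892915-136893164 for *C1qc* and chr17:57228137-57228386 for *C3*. The start used for *C1qc* lies inside the gene as given above, so that 22 of its 250 bases overlap the gene, and positions are counted from that start. Capitals mark matches to short motifs searched on both strands.
C1qb: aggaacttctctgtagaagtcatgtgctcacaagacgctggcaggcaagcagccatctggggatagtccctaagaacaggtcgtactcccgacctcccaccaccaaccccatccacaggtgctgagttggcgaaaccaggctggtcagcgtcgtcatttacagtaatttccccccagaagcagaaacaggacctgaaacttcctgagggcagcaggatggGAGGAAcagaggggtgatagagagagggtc
C1qc: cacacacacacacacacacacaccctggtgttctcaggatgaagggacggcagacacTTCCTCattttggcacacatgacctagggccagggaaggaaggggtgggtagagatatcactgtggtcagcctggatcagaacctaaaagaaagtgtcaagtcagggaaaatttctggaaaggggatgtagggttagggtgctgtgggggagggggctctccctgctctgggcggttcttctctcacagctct
C3: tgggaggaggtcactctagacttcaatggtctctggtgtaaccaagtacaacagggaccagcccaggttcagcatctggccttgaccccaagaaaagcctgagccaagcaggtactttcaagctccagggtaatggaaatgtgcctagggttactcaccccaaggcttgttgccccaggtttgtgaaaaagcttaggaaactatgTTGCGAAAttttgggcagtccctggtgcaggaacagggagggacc

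The capitals in *C1qb*, 30 to 25 bases before the start, and in *C1qc*, 193 to 188 bases before it, are matches to GAGGAA, the core letters bound by the myeloid factor PU.1, read on the opposite strand in *C1qc*. This motif was in 23.3% of the 32851 promoters of this length, so a match is common. The capitals in *C3*, 45 to 38 bases before the start, match TTGCNNAA, a C/EBP motif found in 9.56% of promoters. No match was found in any of the 4 promoters to the core of the interferon-stimulated response element, which was in 2.98% of all promoters. The promoter of *C3ar1* held none of these motifs. These matches describe letters in the windows searched and were not tested as binding sites.

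The tumors had between 14022929 and 33871843 counts on genes (median 20968840), and all 9 genes were among the 13095 that passed the filter on low counts. Levels are given as CPM, in which each count is divided by the effective library size of its tumor (the total multiplied by its TMM factor). The melanoma origin was visible in every tumor, with 10 pigment cell markers summing to between 35505 and 42303 CPM, while 8 hepatocyte markers summed to 0.892 to 2.24 CPM. The tumor nonobese isotype 1 stood apart from the other 2 of its group by low *C3*, *Cfb*, fibroblast and skeletal muscle values, and obese anti–PD-1 1 stood below its group in the C1q genes and *C3*. Counts of called genes that changed without either of them are given both ways. In bulk tissue, fewer cells of a type and less RNA per cell cannot be told apart.

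Per kilobase of exon, *C2* had the highest level of the 9 genes and the steadiest. Its mean over the 12 tumors was 101.9 ± 11.9 CPM per kb (SD, n = 12), and its highest tumor was 1.49-fold above its lowest. The C1q genes followed with 57.6 ± 29.4 CPM per kb for *C1qa*, 52.0 ± 24.0 for *C1qb* and 36.8 ± 17.4 for *C1qc*. *C4b* had 11.4 ± 5.65 CPM per kb, *Serping1* had 9.41 ± 4.78 and *Cfb* had 4.75 ± 3.26. The lowest levels were those of *C3*, with 2.95 ± 2.57 CPM per kb, and *C3ar1*, with 2.91 ± 1.32. In this order, *C2* differed from *C1qa* and *C1qc* from *C4b* by more than the larger SD of the pair, and the other 6 neighboring pairs differed by less. The genes also differed in their range over the tumors: 3.4- to 3.69-fold for the C1q genes, 19.9-fold for *C3* and 21.8-fold for *Cfb*.

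**Figure D1:**
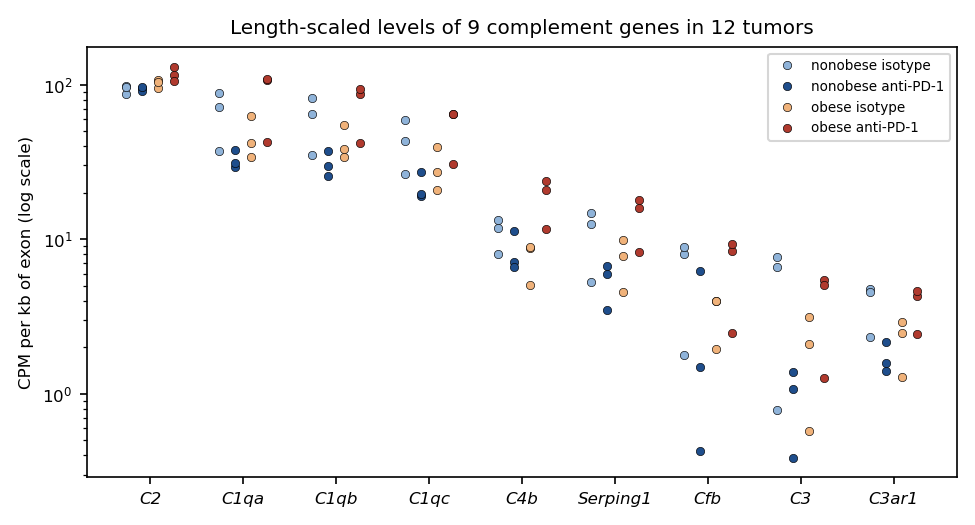
Length-scaled level of each gene in each of the 12 tumors (CPM per kb of exon, log axis, colors for the 4 groups), ordered by the mean. *C2* sits in a narrow band with a 1.49-fold range, whereas *Cfb* and *C3* spread over 21.8-fold and 19.9-fold.

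The response to anti–PD-1 differed between the 2 diets for 7 of the 9 genes (all but *C2* and *Cfb*) at an unadjusted P below 0.05, against 7.01% of all genes in that direction, and for 0 at an FDR below 0.05 by edgeR. Mean levels of the 9 genes were lower with anti–PD-1 than with isotype control in nonobese tumors and higher in obese tumors, but for *C2* the nonobese means were nearly equal (262.3 and 262.0 CPM). Differences were tested for all 13095 genes with edgeR, and a gene was called when its fold change was above 2 with an unadjusted P below 0.05, the thresholds of the study. FDR values are Benjamini-Hochberg adjusted over all genes tested. The contrasts share groups and are not independent of each other, except that the responses in nonobese and obese mice use different tumors, as do the comparisons between diets under the 2 antibodies.

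In nonobese mice, all 9 genes had estimates below 0 for anti–PD-1 against isotype control, with a median log2 fold change of -0.99 (0.02 over all genes tested). *C1qa*, *C3* and *C3ar1* were called lower, 3 of 9 against 2.31% of all genes. At P below 0.05 alone, 6 of 9 were lower, against 3.59% of all genes, and only *C3ar1* had groups that did not overlap, as did 5.37% of all genes. By edgeR, 0 of the 9 genes and 0% of all genes had an FDR below 0.05, and DESeq2 gave 0 of the 9 against 0.0687%. The number called depended on single tumors, and the share of all genes moved with it: 7 were called without nonobese isotype 1 (3.68% of all genes) and 7 without nonobese anti–PD-1 3 (3.58%). Only 2 were called without nonobese isotype 2 (1.29%), nonobese isotype 3 (1.51%) or nonobese anti–PD-1 1 (1.35%), each left out alone.

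In obese mice, the same 9 genes all had estimates above 0 (median log2 fold change 0.90, against -0.01 over all genes). Only *C4b* was called higher, 1 of 9 against 2.24% of all genes, and it was also the only gene whose groups did not overlap, against 5.45% of all genes. At P below 0.05 alone, 6 of 9 were higher, against 4.3% of all genes. By edgeR 0 of 9 and 0% of all genes had an FDR below 0.05, while DESeq2 put 1 gene, *C4b*, below it, against 0.802% of all genes. The count of called genes was 6 without obese anti–PD-1 1 (4.16% of all genes), where *C4b* also had an FDR of 0.0285 by edgeR (0.569% of all genes were below 0.05). It was 4 without obese isotype 1 (2.79%) and 3 without obese isotype 3 (2.7%).

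Between diets, the direction depended on the antibody. With isotype control, 8 of 9 genes had lower estimates in obese than in nonobese tumors (median -0.54, against 0.01 over all genes), but 0 were called, against 1.12% of all genes called lower. Only *C3ar1* had a P below 0.05 (FDR = 0.346 by edgeR), 1 of 9 against 6.17% of all genes, and no gene had groups that did not overlap, against 9.02%. By edgeR and by DESeq2, 0 of 9 had an FDR below 0.05, against 0% of all genes by edgeR and 1.54% by DESeq2. Without nonobese isotype 1, 2 genes were called (2.74% of all genes), and without obese isotype 3, 1 gene was called (1.36%). With anti–PD-1, all 9 had higher estimates in obese tumors (median 1.28, against -0.01 over all genes), and 7 were called, against 3.69% of all genes. Of the 9, 8 had a P below 0.05 (5.71% of all genes) and 7 had groups that did not overlap (6.54% of all genes). The lowest FDR by edgeR was 0.124, so 0 of 9 were below 0.05, where 0.382% of all genes were. DESeq2 put *C4b* (FDR 0.00582) and *C3ar1* (0.0402) below 0.05, against 2.06% of all genes. Without obese anti–PD-1 1, 8 genes were called (5.17% of all genes), and the C1q genes and *C4b* had FDR values between 0.0139 and 0.0246 by edgeR, where 1.6% of all genes were below 0.05. The count was 8 without nonobese anti–PD-1 3 (4.56%). It was 5 without obese anti–PD-1 2 (2.53%), where *C3* and *C4b* (log2 fold change 0.96) lost their calls, and 5 without obese anti–PD-1 3 (2.34%), where *C3* and *C3ar1* (0.97) lost theirs.

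A separate contrast compared the 2 responses, as the log2 fold change in obese minus that in nonobese mice. All 9 estimates were above 0 (median 1.91, against -0.04 over all genes), and 7 genes were called, against 4.93% of all genes. The same count, 7, passed P below 0.05 alone, against 7.01% of all genes. By edgeR 0 of 9 and 0% of all genes had an FDR below 0.05, and DESeq2 put *C4b* (FDR 0.00462) and *C3ar1* (0.00695) below it, against 2.16% of all genes. Leaving out nonobese isotype 1 brought 5 of the 9 genes below 0.05 by edgeR (0.832% of all genes) and the count of called genes to 8 (6.07%). Leaving out obese anti–PD-1 1 also gave 5 (1.48%) and 8 (6.36%), and leaving out nonobese anti–PD-1 3 gave 8 called genes (6.02%). The plot of estimates by comparison shows intervals above 0 in the last panel for 7 of the 9 genes, and intervals that include 0 for *C2* and *Cfb*.

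**Figure D2:**
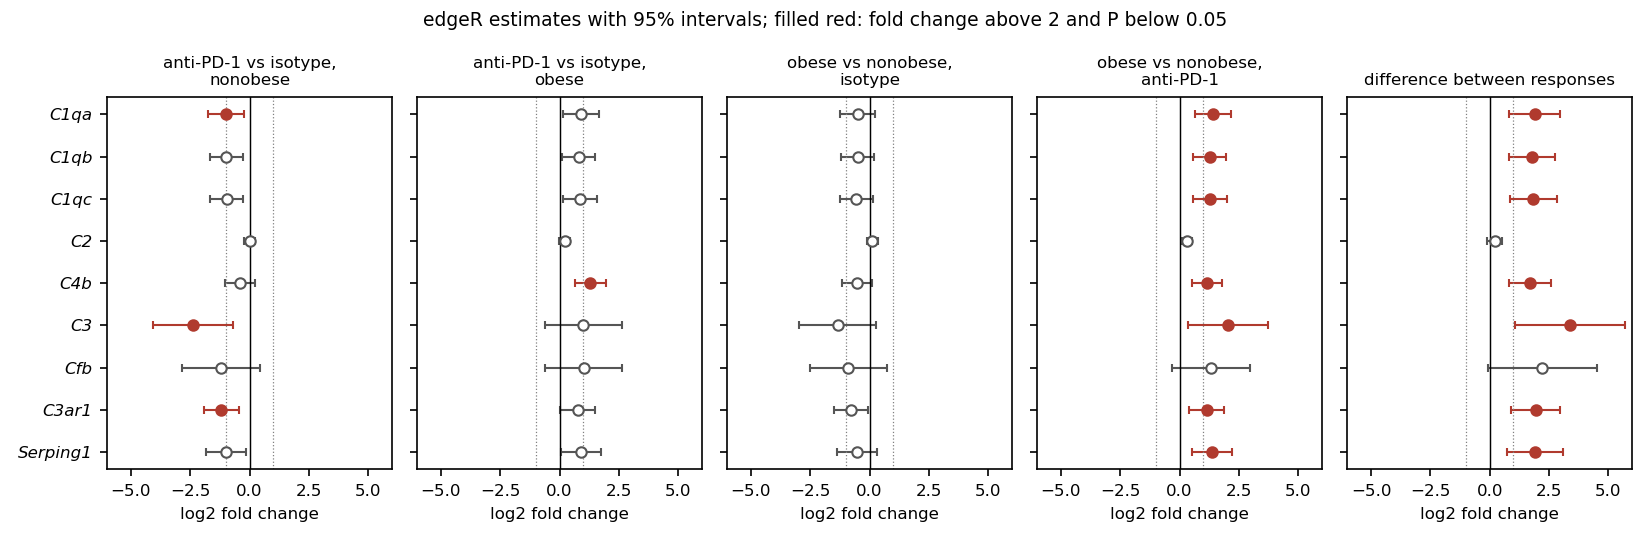
Log2 fold changes of the 9 genes in the 5 comparisons by edgeR, with bars for 95% confidence intervals and dotted lines at a 2-fold change. Filled red points were called, numbering 3, 1, 0, 7 and 7 from left to right.

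The genes of C1q, the recognition molecule, moved together. *C1qa* was at 38.6, 91.9 and 74.6 CPM in the 3 nonobese isotype tumors and at 30.5, 32.5 and 39.2 CPM with anti–PD-1. In obese mice it was at 65.0, 35.4 and 43.4 CPM with isotype and at 44.4, 112 and 112 CPM with anti–PD-1. The nonobese anti–PD-1 tumors were all low and close together, and they overlapped with their isotype group only through nonobese isotype 1. In obese mice, both high tumors of the anti–PD-1 group stood above every isotype tumor, and the remaining one lay among them. The response of *C1qa* was -1.0 ± 0.35 on the log2 scale in nonobese mice (SE, FDR = 0.841 by edgeR) and 0.90 ± 0.35 in obese mice (FDR = 0.553 by edgeR). The first value, a 2.01-fold decrease, is just past the 2-fold limit, and it missed the limit without each of 4 tumors of that comparison, the exceptions being nonobese isotype 1 and nonobese anti–PD-1 3. Under anti–PD-1, *C1qa* was 2.63-fold higher in obese tumors (FDR = 0.126 by edgeR), with no overlap between the groups.

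*C1qb* had a mean of 65.7 ± 25.5 CPM in nonobese isotype tumors and 33.5 ± 6.29 CPM in nonobese anti–PD-1 tumors (SD, n = 3 each). Its means in obese tumors were 46.2 ± 11.8 CPM with isotype and 80.9 ± 30.9 CPM with anti–PD-1. *C1qc* followed at 51.8 ± 20.0, 26.4 ± 5.44, 35.0 ± 11.5 and 64.0 ± 23.7 CPM in the same order of groups. In each of the 12 tumors the subunits kept nearly the same proportions, with 0.853 to 1.05 CPM of *C1qb* and 0.692 to 0.835 CPM of *C1qc* for each CPM of *C1qa*, not scaled to length. The differences between responses were 1.91 ± 0.50 for *C1qa*, 1.78 ± 0.45 for *C1qb* and 1.84 ± 0.46 for *C1qc* on the log2 scale, with FDR values between 0.130 and 0.141 by edgeR.

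Of the 2 proteins that C1 cleaves, C4 and C2, only the gene for C4 was called. *C4b*, which encodes C4 in the mouse, was at 42.9, 71.3 and 63.3 CPM in nonobese isotype tumors and at 61.0, 38.6 and 35.9 CPM with anti–PD-1, so that the groups overlapped. In obese mice it was at 47.4, 27.3 and 47.9 CPM with isotype and at 62.8, 128 and 112 CPM with anti–PD-1. All 3 obese anti–PD-1 tumors were above all 3 obese isotype tumors, and also above all 3 nonobese anti–PD-1 tumors. In obese mice, *C4b* rose 2.46-fold with anti–PD-1 (log2 1.30 ± 0.30, FDR = 0.206 by edgeR), and its difference between responses was 1.69 ± 0.42 (FDR = 0.128 by edgeR). In nonobese mice its estimate was -0.39 ± 0.29, with an interval from -1.02 to 0.24. Some reads of *C4b* could also match *C4a*, its neighboring copy, annotated as a transcribed pseudogene at chr17:34809092-34823460. Of the 100-base windows of the *C4b* transcript, 16.5% also occurred in *C4a*, and *C4b* held between 95% and 100% of the counts of both genes in each tumor.

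*C2*, the protease that joins C4 in the C3-cleaving enzyme, had the highest length-scaled level of the 9 genes. It was at 274, 244 and 269 CPM in nonobese isotype tumors, at 264, 253 and 268 CPM with anti–PD-1, at 297, 264 and 289 CPM in obese isotype tumors and at 322, 364 and 294 CPM with anti–PD-1. All tumors of the first 3 groups lay in a narrow band, and the obese anti–PD-1 group reached above it. In nonobese mice the response had an interval from -0.22 to 0.22 on the log2 scale, and in obese mice the estimate was 0.21 ± 0.10 (FDR = 0.681 by edgeR). Obese anti–PD-1 tumors were 1.25-fold above nonobese anti–PD-1 tumors without overlap (FDR = 0.256 by edgeR), which is below the 2-fold limit. The difference between responses was 0.21, with an interval from -0.11 to 0.52. A read-through gene model, *Gm20547*, shares 53.2% of the 100-base windows of *C2* and 81% of those of *Cfb*, so counts of both genes depend on how such reads were assigned.

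*C3*, the central component on which the pathways meet, had the largest estimate of the 9 genes in 4 of the 5 comparisons and a wide spread in every group. It was at 4.01, 33.9 and 39.5 CPM in nonobese isotype tumors and at 1.98, 5.51 and 7.09 CPM with anti–PD-1. Obese tumors were at 10.8, 2.94 and 16.2 CPM with isotype and at 6.49, 27.9 and 25.8 CPM with anti–PD-1. Each group held 1 tumor well below its other 2, and nonobese isotype 1 fell within the range of the nonobese anti–PD-1 tumors. *C3* was called 5.24-fold lower with anti–PD-1 in nonobese mice (log2 -2.39 ± 0.78, FDR = 0.833 by edgeR), with an interval from -4.07 to -0.70. In obese mice the estimate was 1.00 ± 0.75 (FDR = 0.797 by edgeR), and the difference between responses was 3.39 ± 1.08 (FDR = 0.217 by edgeR). The 4.12-fold higher level in obese than in nonobese tumors under anti–PD-1 (FDR = 0.366 by edgeR) came from overlapping groups and did not keep a P below 0.05 without nonobese anti–PD-1 1 (estimate 1.69), obese anti–PD-1 2 (1.74) or obese anti–PD-1 3 (1.83). With a robust prior *C3* also lost this call on all tumors, at an unchanged estimate of 2.04.

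*Cfb*, which encodes the protease of the alternative pathway, was not called in any of the 5 comparisons, but its call depended on the tumors and the model. It was at 4.88, 22.1 and 24.6 CPM in nonobese isotype tumors and at 1.17, 4.11 and 17 CPM with anti–PD-1. Obese tumors had 10.9, 5.39 and 11 CPM with isotype and 6.84, 23.2 and 25.5 CPM with anti–PD-1. The groups of both responses overlapped, since nonobese anti–PD-1 3 was above nonobese isotype 1, and obese anti–PD-1 1 was below obese isotype 1 and 3. The difference between responses was 2.22 ± 1.07 (FDR = 0.409 by edgeR), and leaving out nonobese anti–PD-1 3 moved it to 3.68. The response in nonobese mice moved from -1.20 to -2.66 without that tumor, and the difference between diets under anti–PD-1 from 1.32 to 2.78, and *Cfb* was called in all 3 comparisons. Without nonobese anti–PD-1 1 these estimates were instead closer to 0, at -0.71 for the nonobese response, 0.83 between diets under anti–PD-1 and 1.74 for the difference between responses, and none was called. With the replicate number as a block it was called in the same 3, with estimates of -1.43, 1.60 and 2.08 for the nonobese response, the diets under anti–PD-1 and the difference between responses. *Cfb* was also called without nonobese isotype 1 in the nonobese response (-1.65) and the difference (2.67), and without obese anti–PD-1 1 between diets under anti–PD-1 (1.71) and in the difference (2.62). Among the other models, the difference was called without a filter (2.20) and with the current glmQLFit (2.21), and the obese response in a model of only the tumors compared (1.03).

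*C3ar1*, the receptor for C3a on myeloid cells, was the gene whose nonobese groups were separate. It was at 10.1, 20.7 and 19.7 CPM in nonobese isotype tumors and at 6.05, 6.83 and 9.27 CPM with anti–PD-1. In obese mice it was at 10.7, 5.53 and 12.6 CPM with isotype and at 10.4, 18.4 and 20.0 CPM with anti–PD-1, with obese anti–PD-1 1 inside the isotype range. *C3ar1* was called 2.27-fold lower with anti–PD-1 in nonobese mice (log2 -1.18 ± 0.34, FDR = 0.833 by edgeR), and its estimate in obese mice was 0.76 ± 0.34 (FDR = 0.635 by edgeR). The difference between responses was 1.94 ± 0.48 (FDR = 0.128 by edgeR). Under anti–PD-1 it was 2.21-fold higher in obese than in nonobese tumors (FDR = 0.198 by edgeR), with no overlap.

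*Serping1*, the inhibitor of the C1 proteases, moved in the same directions as the genes of C1q. It was at 10.6, 25.3 and 29.5 CPM in nonobese isotype tumors and at 7.07, 13.5 and 12 CPM with anti–PD-1. The obese groups were at 15.7, 9.16 and 19.8 CPM with isotype and at 16.6, 36.1 and 31.9 CPM with anti–PD-1. The groups of each response overlapped through 1 low tumor of the higher group, and the anti–PD-1 groups of the 2 diets were separate. The response was -0.99 ± 0.39 in nonobese mice (FDR = 0.878 by edgeR), just short of the 2-fold limit, and 0.92 ± 0.39 in obese mice (FDR = 0.611 by edgeR). The difference between responses was 1.91 ± 0.55 (FDR = 0.174 by edgeR), and under anti–PD-1 *Serping1* was 2.60-fold higher in obese tumors (FDR = 0.181 by edgeR).

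**Figure D3:**
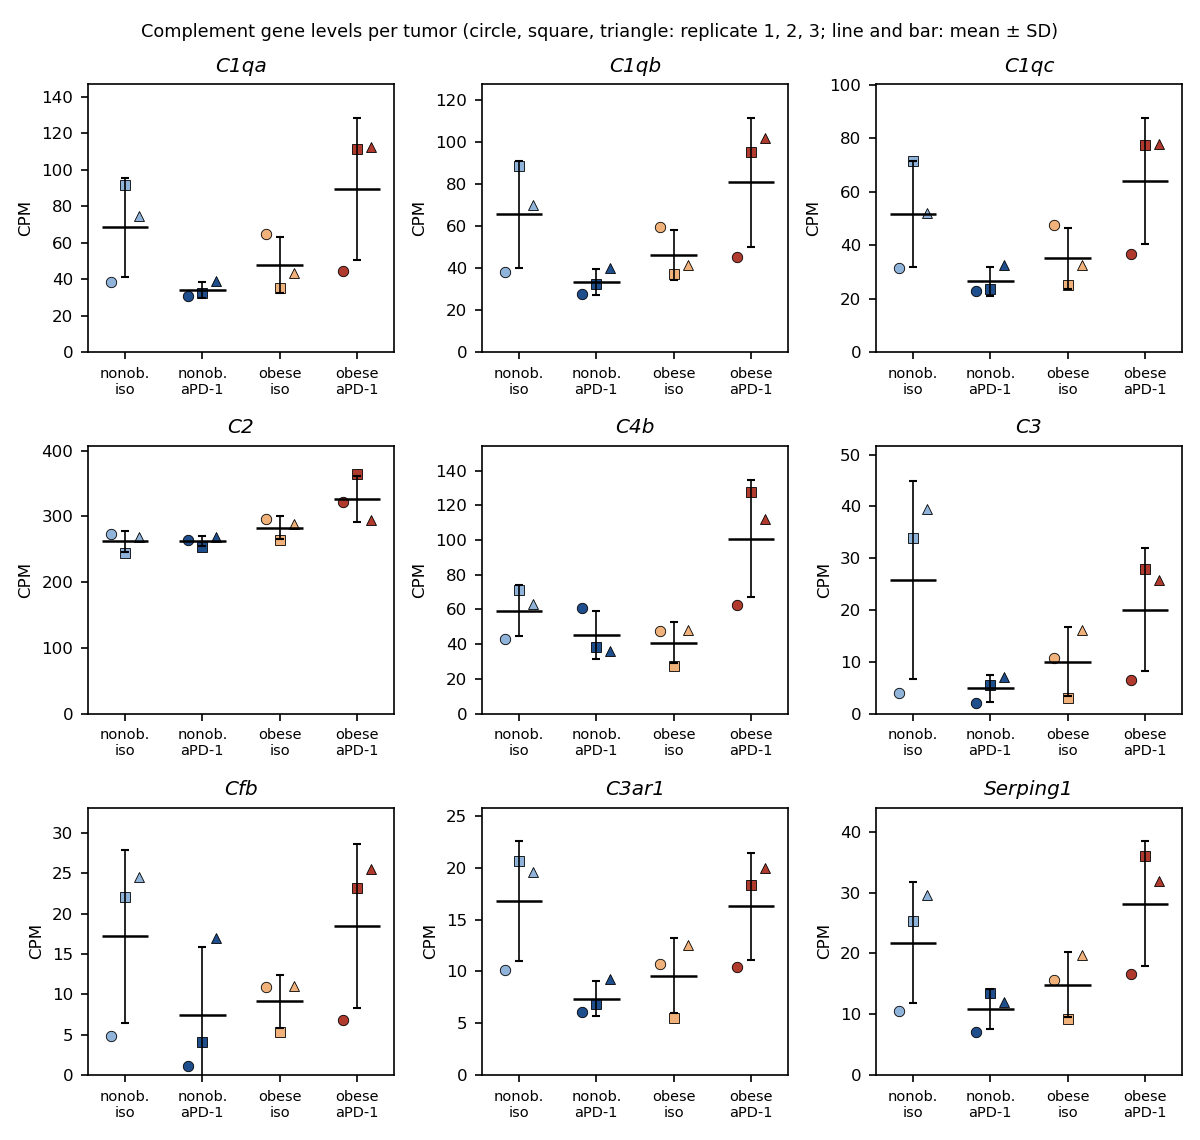
CPM of the 9 genes in each of the 12 tumors, with the mean and SD of each group of 3 (aPD-1, anti–PD-1; iso, isotype control; nonob., nonobese). The nonobese anti–PD-1 group has the lowest mean for 8 of the 9 genes (all but *C4b*), *C2* is nearly level across groups, and obese anti–PD-1 replicate 1 (circle) is the lowest of its group for 8 of the 9 genes.

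The 9 genes are a part of a larger system, and 45 other complement genes were looked up by role. Of these, 7 had no counts in any tumor, among them the mannose-binding lectins *Mbl1* and *Mbl2* and the terminal components *C8a*, *C8b* and *C9*, and 21 passed the filter. Among these 21, 8 were called lower with anti–PD-1 in nonobese mice (2.31% of all genes) and 2 were called higher in obese mice (2.24%). Between diets, 3 were called lower in obese isotype tumors (1.12% of all genes) and 6 higher in obese anti–PD-1 tumors (3.69%), and 11 were called higher in the difference between responses (4.93%). Their medians were -0.70, 0.77, -0.66, 0.93 and 1.66 on the log2 scale, in the order of these comparisons, and 0 of the 21 had an FDR below 0.05 by edgeR, where 9, 6, 4, 10 and 11 had a P below 0.05 in these directions (3.59%, 4.3%, 6.17%, 5.71% and 7.01% of all genes). DESeq2 put 0, 2, 0, 3 and 6 of them below that FDR, against 0.0687%, 0.802%, 1.54%, 2.06% and 2.16% of all genes.

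Among the initiation genes, 4 of 13 were tested. Of the proteases that assemble with C1q, *C1ra* was at 12.1 ± 1.45, 10.3 ± 1.07, 9.14 ± 1.84 and 16.3 ± 3.24 CPM (SD, n = 3 each) in the 4 groups. Its response in obese mice was 0.83 ± 0.19 (FDR = 0.206 by edgeR) without overlap, below the 2-fold limit, and its difference between responses, 1.07 ± 0.27 (FDR 0.130 by edgeR), was called. *C1s* was at 7.26, 6.84, 6.80 and 11.7 CPM in the means of the same groups and was not called. The response of *C1s* in obese mice was 0.78 ± 0.30 (FDR = 0.549 by edgeR), also without overlap and below the 2-fold limit. *Fcna*, encoding ficolin A, a lectin pathway recognition protein, was called lower in nonobese mice (log2 -2.35 ± 0.58, FDR = 0.833 by edgeR), from 3.52 ± 2.06 to 0.676 ± 0.236 CPM. *C4a* was near the limit of detection, with group means between 0.117 and 0.717 CPM, and was not called.

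In the alternative pathway, both other genes were tested. *Cfd*, which encodes factor D or adipsin, the protease that activates factor B and a known product of adipocytes, had the largest difference between responses of all the complement genes tested. It was at 2.57, 13.3 and 7.95 CPM in nonobese isotype tumors and at 0.305, 2.38 and 3.21 CPM with anti–PD-1. Obese tumors had 0.210, 1.19 and 0.955 CPM with isotype and 7.05, 3.49 and 14.8 CPM with anti–PD-1. The obese groups were separate, as were the isotype groups of the 2 diets, in opposite directions. *Cfd* was called lower with anti–PD-1 in nonobese mice (log2 fold change -2.00 ± 0.75) and higher in obese mice (3.49 ± 0.85), and the difference was 5.48 ± 1.13 (FDR 0.117 by edgeR). *Cfp*, encoding properdin, which stabilizes the alternative enzyme, had group means of 13.8, 6.61, 8.02 and 13.8 CPM and was called lower in nonobese mice and higher in obese tumors under anti–PD-1.

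Of 7 genes of the terminal pathway, *C6* and *C8g* were tested, and *C6* was called in 3 comparisons at group means of 0.0767 to 0.834 CPM. Of the fluid-phase regulators, *Clu*, encoding clusterin, had group means of 9.27, 9.92, 8.54 and 9.24 CPM, with isotype and then anti–PD-1 in nonobese mice and likewise in obese mice, and *Vtn*, encoding vitronectin, had 0.872, 0.995, 1.12 and 1.17 CPM. Neither was called in any comparison. The membrane regulators that protect cells from complement were mostly level. *Cr1l*, encoding Crry, had group means of 39.2, 36.2, 40.3 and 38.0 CPM and *Cd59a* had 7.09, 7.28, 9.35 and 8.93 CPM, and neither was called. *Cd55*, encoding decay-accelerating factor, was called lower in nonobese mice (log2 fold change -1.91 ± 0.86), at group means of 0.669 and 0.161 CPM.

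Among 7 tested receptors, 5 were called in the difference between responses, against 4.93% of all genes, and all 5 are known from myeloid cells. *C5ar1*, the C5a receptor, had group means of 10.1, 4.90, 4.84 and 9.29 CPM and was called lower in nonobese mice (log2 fold change -1.04 ± 0.32) and lower in obese than in nonobese isotype tumors (-1.04 ± 0.32). Its difference between responses was 1.97 ± 0.46 (FDR = 0.122 by edgeR). The integrin subunits of complement receptors 3 and 4, *Itgam*, *Itgax* and *Itgb2*, had differences between responses of 2.11, 2.50 and 1.66, all called, and so had *Vsig4*, a macrophage receptor for C3 fragments, with 4.68 at group means of 0.0887 to 0.531 CPM. *C1qbp*, a widely expressed protein named for binding C1q, had group means between 146 and 157 CPM and was not called, and neither was *Cd93*. The plot of both responses places all 5 of these receptors, *Cfd*, *Cfp* and *C6* at a negative value in nonobese mice and a positive value in obese mice.

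**Figure D4:**
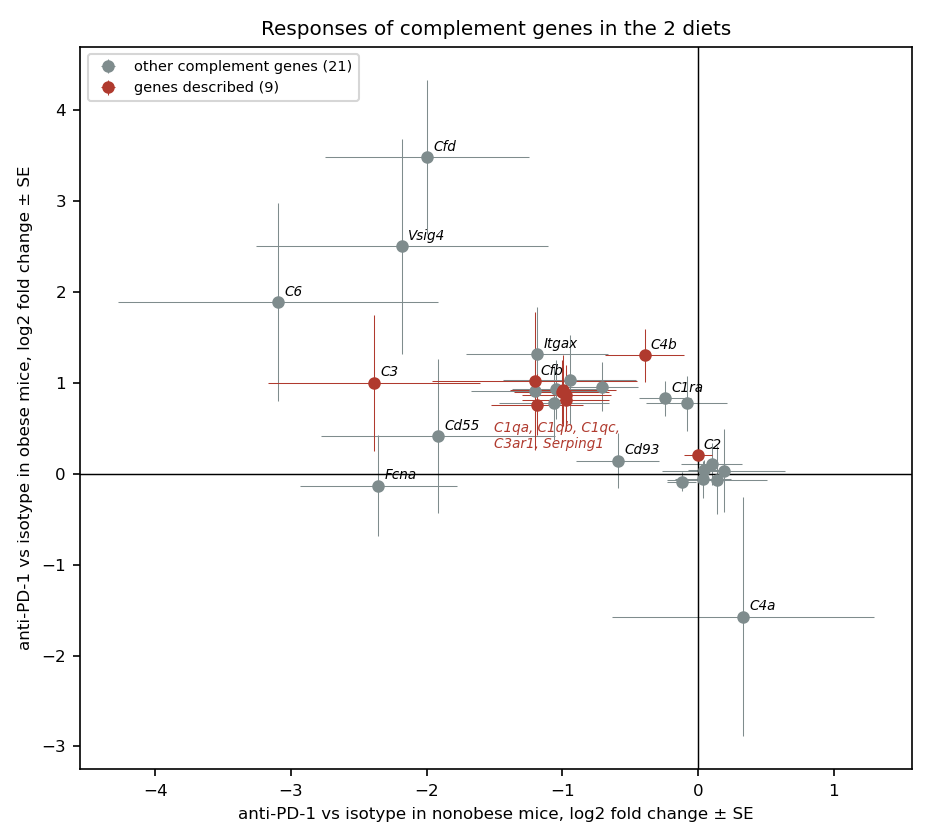
Log2 fold change of anti–PD-1 over isotype control in nonobese tumors (horizontal axis) and obese tumors (vertical axis), with bars for the SE, for the 9 genes described (red) and 21 other complement genes tested (gray), with some points left unnamed. All 9 red points lie at or left of 0 and above 0, with *C2* near the origin and *Cfd* at -2.00 and 3.49.

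Markers of other cell types moved with several of these genes, and their part in the results was not tested. The sum of 10 macrophage markers, none at 0 in any tumor, ranged from 139 to 288 CPM in nonobese isotype tumors, 84.2 to 132 with anti–PD-1, 103 to 172 in obese isotype tumors and 154 to 265 with anti–PD-1. Of these 10 markers, 4 were called lower in the nonobese response, 2 higher in the obese response and 8 higher in the difference between responses (median log2 value 1.69), where 2.31%, 2.24% and 4.93% of all genes were. The sum of 10 fibroblast markers, also none at 0, ranged from 646 to 2861 CPM, 302 to 585, 222 to 1134 and 445 to 1914 in the same order of groups. Of these, 7 were called lower in the nonobese response, 0 higher in the obese response and 7 higher in the difference. Of 10 genes induced by interferon-γ, 9 were called higher in the obese response and 1 lower in the nonobese response, and their sum ranged from 156 to 341 CPM in nonobese anti–PD-1 tumors and from 337 to 1141 in obese anti–PD-1 tumors.

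The remaining lists were counted in the same way. Of 10 adipocyte markers, 3 were called lower in the nonobese response and 9 higher in the obese response, with sums of 26.2 to 65.7, 21 to 43.5, 23.2 to 33.2 and 60.5 to 149 CPM in the 4 groups. Of 6 tested T cell markers, 1 was called lower and 4 higher in these responses, with sums of 5.24 to 6.37 CPM in nonobese and 7.97 to 19.3 CPM in obese anti–PD-1 tumors, and of 10 skeletal muscle markers 0 and 2. Of 10 endothelial markers, 1 was called lower in the nonobese response and 0 in the obese response, and of 10 melanoma markers 0 were called in either. Only 2 of 9 neutrophil markers and 1 of 8 hepatocyte markers could be tested, with 0 called, and between 3 and 7 of the 8 hepatocyte markers were at 0 in each tumor.

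Across the 12 tumors, which share the 4 groups, the log2 level of 8 of the 9 genes moved with both the macrophage and the fibroblast markers. Pearson's r with the macrophage score, the mean log2 CPM of its markers, was 0.95 to 0.96 for the C1q genes, 0.97 for *C3ar1*, 0.94 for *Serping1*, 0.95 for *C3* and 0.87 for *Cfb*. With the fibroblast score, r was 0.89 for each of the C1q genes, 0.94 for *C3ar1*, 0.92 for *Serping1*, 0.98 for *C3* and 0.89 for *Cfb*, so that these genes are not assigned to 1 of the lists. With the interferon-γ-induced genes it was 0.75 for *C3* and 0.79 to 0.86 for the others of these 7 genes. *C4b* had a looser relation, with r = 0.74 for macrophages and 0.62 for fibroblasts. *C2* stood out with r = 0.31 and 0.19, and it had r = 0.61 with the interferon-γ-induced genes and 0.44 with the melanoma markers. After group means were taken out, r with the macrophage score was still 0.93 to 0.94 for the C1q genes and was 0.04 for *C2*. With the fibroblast score these values were 0.90 to 0.91 and 0.06. For *C3ar1* and *Serping1*, r with the macrophage score was then 0.94 and 0.92, and it was 0.97 for both with the fibroblast score. The mean log2 CPM of the C1q genes minus the macrophage score was 2.17 ± 0.08, 2.19 ± 0.21, 2.36 ± 0.24 and 2.45 ± 0.12 (SD, n = 3 each) in the 4 groups.

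**Figure D5:**
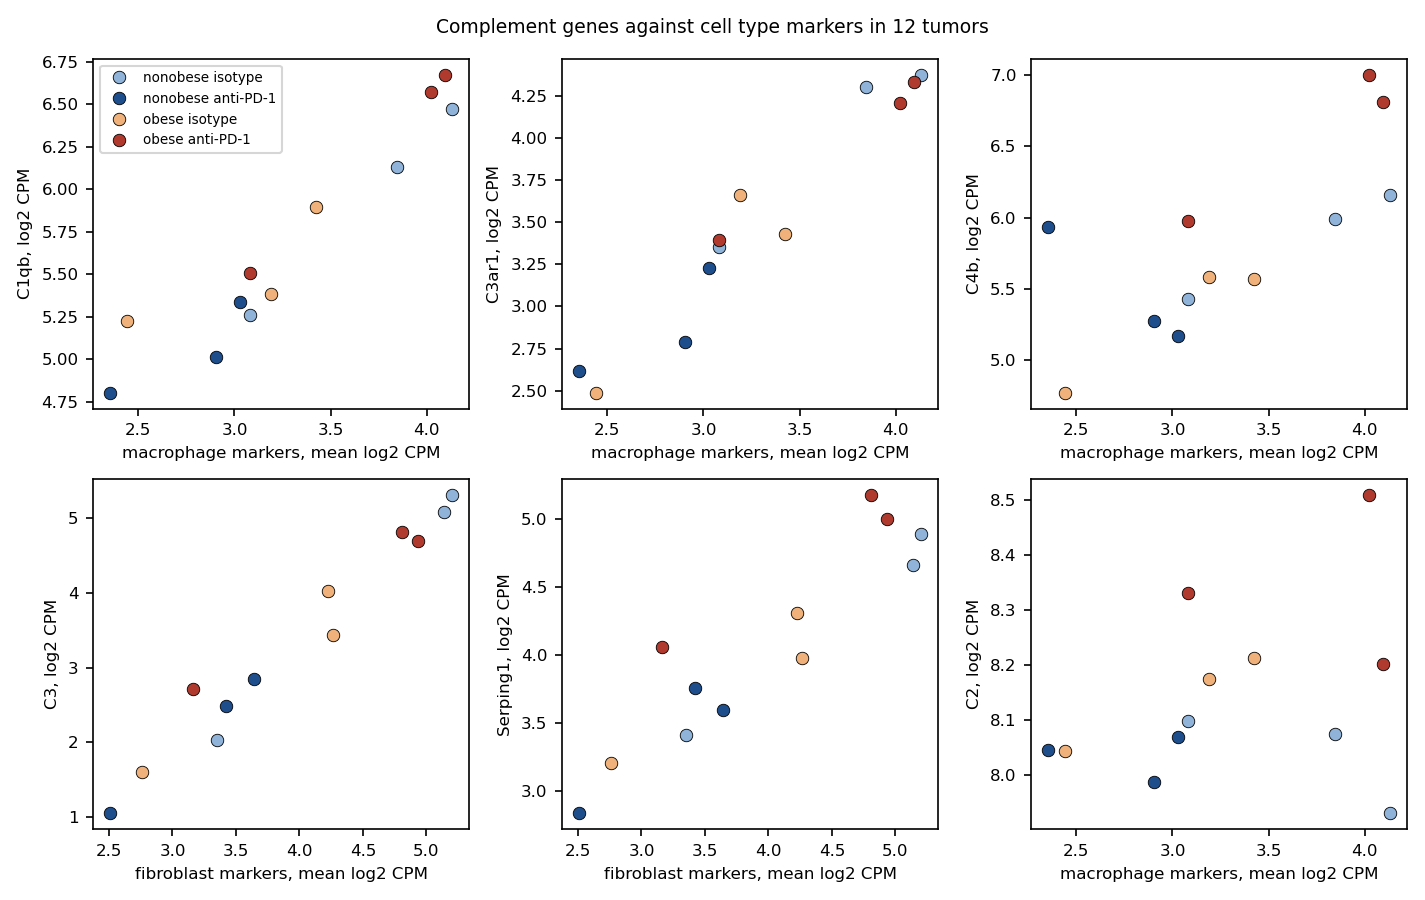
Log2 CPM of 6 complement genes against the mean log2 CPM of macrophage or fibroblast markers in the 12 tumors, colored by group. *C1qb*, *C3ar1*, *C3* and *Serping1* lie along a line, *C4b* less so, and *C2* shows little relation (r = 0.31).

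The genes most similar to each complement gene over the 12 tumors are given as descriptions, since the tumors share groups. Whether they differed by role was not tested. *C1qa* was closest to *Syk*, *Irf7* and *Coro1a* (r = 0.97 for each). For *C1qb* the closest were *Coro1a* (0.98), *Syk* and *Fcer1g* (0.97 for both), and for *C1qc* they were *Coro1a*, *Slc11a1* (0.98 for both) and *Syk* (0.97). *C3ar1* was closest to *Tnfrsf1b*, *Csf1r* and *Fcgr1* (r = 0.98 for each), *Csf1r* being the receptor for the macrophage growth factor CSF1. *C3* was closest to the matrix genes *Dcn* and *Col3a1* (r = 0.98 for both) and to *Fndc1*. *Serping1* was closest to *Ms4a6c* (0.97), *Ly6e* and *Clec10a*, *C4b* to *Cdc42ep2* (0.92), *Lgals3bp* and *Ifitm3*, and *Cfb* to *Nuak2* (0.96), *Ntn1* and *Sel1l3*. *C2* was closest to *Oca2* (r = 0.90), a pigment cell gene, ahead of *Rsad2* and *Scarb2*.

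Pairs of the 9 genes were related in the same way. The C1q genes had r = 0.99 with each other over the 12 tumors and *C3* had r = 0.96 with *Serping1*, 0.95 with *C3ar1* and 0.90 with *Cfb*. *C2* and *Cfb*, which lie next to each other, had r = 0.28, and *C2* had r between 0.26 and 0.57 with the other 8 genes. *C4b* was closest to *C1qa* among the 9, with r = 0.81.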

How the data were processed

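RNA of 12 tumors was sequenced as stranded poly(A) libraries with single-end reads. Per the labels and the study's methods, the authors checked reads with FastQC 0.11.5, aligned them to mm10 with STAR 2.7.0f and counted them per gene with HTSeq 0.9.1, and they deposited raw counts without normalization. The annotation release and strand setting of the counting are not given in the sources used here, so overlapping genes are uncertain. Every column was matched to a tumor by its name, and 0 were left unused. No libraries held identical counts (0 pairs).

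Counts were filtered with filterByExpr (13095 of 23420 genes), scaled by TMM and fitted with edgeR 4.0.16 under R 4.3.3 (quasi-likelihood F-test, legacy=TRUE, 4 group means, 8 residual degrees of freedom, common dispersion 0.0352). FDR is the Benjamini-Hochberg value over all genes tested. A gene was called at a fold change above 2 and P below 0.05. Group values are CPM. Correlations and marker scores use log2 CPM with a prior count of 2. Length is the union of exons of protein-coding transcripts in GENCODE M21. Reads had no molecular identifiers. The code was tested on simulated data.

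The 9 genes and all lists were chosen with earlier results of these data known. Named genes are the 9, other complement genes that were called or are core to a pathway, and the 3 genes most correlated with each of the 9. The lists cover macrophage, fibroblast, adipocyte, endothelial, T cell, neutrophil, skeletal muscle, melanoma and hepatocyte markers and interferon-γ-induced genes. The alternatives were DESeq2 1.42.0, RLE scaling, other filters, a robust prior, the current glmQLFit, fits of the compared groups alone, a replicate block, another prior count and leaving out each tumor. Some items are not reported here.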

Additional observations from a re-analysis of the deposited data

Results flagged for a closer look

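For 7 of the 9 genes, the response to anti–PD-1 differed between obese and nonobese mice when the difference itself was tested by edgeR at an unadjusted P below 0.05, against 7.01% of all genes. The difference in log2 fold change was 1.91 for *C1qa* (FDR = 0.141), 1.78 for *C1qb* (FDR = 0.130) and 1.84 for *C1qc* (FDR = 0.130). It was 1.69 for *C4b* (FDR = 0.128), 3.39 for *C3* (FDR = 0.217), 1.94 for *C3ar1* (FDR = 0.128) and 1.91 for *Serping1* (FDR = 0.174). None of the 7 had an FDR below 0.05 by edgeR, although DESeq2 put *C4b* and *C3ar1* below it, against 2.16% of all genes. *C2* and *Cfb* had differences of 0.21 and 2.22 that did not reach P below 0.05.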

How the results depend on the processing

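Under 8 alternatives of the model and 12 fits that each left out 1 tumor, the direction of all 9 genes was kept in every comparison, except for *C2* in the nonobese response, near 0 throughout: it was 0.019 without a filter and -0.051 to 0.032 with 1 tumor left out. Of the single-gene values, 845 kept their side of the thresholds, 39 gained a call, 12 lost it and 4 changed sign. The causes were not tested.

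The count of genes called in nonobese mice (3) was 6 with at least 10 counts in every tumor, where 168 of all 11641 genes were called (302 of 13095 otherwise), and 2 to 7 with 1 tumor left out. In obese mice (1) it was 2 in a model of only the tumors compared (301 of all 12706 genes, against 293 of 13095) and 1 to 6 with 1 tumor left out, and between diets with isotype control (0) it was 0 to 2. Under anti–PD-1 (7) it was 5 to 8 and in the difference between responses (7) it was 7 to 8. Genes at an FDR below 0.05 (0 by edgeR in every comparison) numbered 1, 2 and 2 by DESeq2 in the obese response, between diets under anti–PD-1 and in the difference between responses, and 0 to 1, 0 to 4 and 0 to 5 with 1 tumor left out. *C1qa* in nonobese mice lost its call without a filter (-0.98). With a prior count of 0.5, *Lum* replaced *Fndc1* among the 3 genes closest to *C3*, and the other names stayed.

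With the replicate number as a replicate block, 3, 1, 0, 8 and 8 genes were called against 3, 1, 0, 7 and 7, with *Cfb* added in the last 2 and *C1qa* replaced by *Cfb* in the first. Over all 13095 genes, 350, 311, 174, 512 and 679 were then called in these directions, against 302, 293, 147, 483 and 645. Tumors that share a number come from different mice, so the numbers were not taken as pairs. Their deviations had a mean correlation of 0.13 (-0.26 to 0.56 over 18 pairs). For tumors with different numbers it was -0.06 (-0.55 to 0.45 over 36 pairs). The lowest count of any of the 9 genes was 23, for *Cfb*.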
